A study of Mus musculus with 18 samples.

Results

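Genes for chromatin remodelling complexes and histone modifying enzymes were examined in bulk RNA from mouse cortex. They were chosen by symbol alone: every row whose name begins with Smarc, Arid1 to Arid5, Kmt, Kdm, Setd, Hdac, Baz1, Baz2, Ino80, Brd or Phf followed by its number or letter. This gave 102 of the 13784 genes in each of the authors' 3 deposited tables. By role they were 15 subunits of SWI/SNF complexes, 6 of ISWI complexes, 5 of INO80 and 2 other SNF2 helicases. A further 18 carried methyltransferase names (Kmt or Setd) and are called methyltransferases below. There were also 18 demethylases, 11 deacetylases, 5 bromodomain readers, 14 PHD finger genes and 6 other ARID genes. The last 2 were transcripts named for the opposite strand of a member (Brd3os and Ino80dos). A rule by name also takes in proteins with other main functions, among them the splicing factor subunit Phf5a and the actin methyltransferase Setd3. All 102 were measured in each comparison, and the lowest mean level of a member in any table was 1.46 log2 CPM (read counts scaled to library size, on a log scale).

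Cells open, move and close nucleosomes with ATP-driven remodelling complexes, of which SWI/SNF, ISWI, INO80 and CHD are the main families. Writers place methyl or acetyl groups on histone tails, erasers remove them, and readers with bromodomains or PHD fingers bind the marked tails. Methylation of histone H3 lysine 4 (H3K4) marks active promoters and enhancers, and mutations in several of these genes, as in CHD8, are linked to autism and intellectual disability in people. In macrophages and glia, some of these enzymes are also known as regulators of inflammatory genes.

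The 18 mice fell into 4 groups: 4 controls given saline, 5 controls given lipopolysaccharide (LPS, a bacterial cell wall component that triggers innate immunity), 4 mice with a conditional knockout of Chd8 in astrocytes (cKO) given saline, and 5 cKO mice given LPS. LPS was injected into the abdominal cavity at 5 mg/kg in mice 4 to 6 months old, and the labels give 72 hours between injection and dissection of the cortex. The labels name neither the Cre line that deletes Chd8 nor the alleles that controls carry. The design text states that the series looked for transcriptional effects of Chd8 loss in astrocytes at baseline and during neuroinflammation. Only the results of the authors' own 3 comparisons were used: LPS against saline in controls, LPS against saline in cKO mice, and cKO against control after LPS. The depth of each library and the spread between mice are therefore unknown here.

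Group levels quoted below, in log2 CPM, were back-calculated from the fold changes, mean levels and group sizes of the authors' deposited tables and carry no error of their own. Fold changes are on the log2 scale with a standard error (± SE) derived from the deposited F statistic, and a gene was called changed at an FDR below 0.05. Chd8 itself, read in whole cortex, differed by 0.02 ± 0.05 between cKO and control mice after LPS (95% interval -0.10 to 0.14) in the authors' deposited table, so the deletion was not visible at this level. Of the cell type markers, 5 of 7 microglial and 4 of 6 endothelial markers rose with LPS in controls, and 3 of 7 and 5 of 6 in cKO mice. In cKO mice 1 microglial marker fell. Their summed levels in control saline, control LPS, cKO saline and cKO LPS groups were 280.4, 430.1, 283 and 360.4 CPM for microglia, and 169, 300.0, 179 and 276 CPM for endothelium. Of 7 neuronal markers, 1 rose in controls and 3 in cKO mice, with sums of 5890.8, 6329.8, 5889.5 and 6273.4 CPM. Of 8 astrocyte markers, 1 rose and 1 fell in controls and 4 fell in cKO mice, with sums of 4052.4, 3924, 4671.1 and 4154.4 CPM. No marker of these lists was at 0. The proliferation markers Mki67 and Top2a rose in controls, and neither passed in cKO mice. Their sums were 2.43, 7.30, 2.90 and 3.40 CPM. The 2 choroid plexus markers measured did not pass in either genotype, with sums of 111.19, 9.69, 113.89 and 19.45 CPM. In bulk tissue, fewer cells of a type and less RNA per cell cannot be told apart, and the part of cell makeup in the results below was not tested.

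More chromatin genes rose than fell with LPS in control mice. According to the authors' deposited table, 12 of the 102 members rose (11.8%), against 6.46% of all genes, and 1 fell (0.98%), against 3.31% of all genes. The members' median log2 fold change was 0.10, and 68 of them (66.7%) lay above 0, against 49.5% of all genes. At an unadjusted p below 0.05, 33 members (32.4%) were higher and 4 (3.92%) lower, where all genes gave 16.2% and 12.7%. The Y-linked Ddx3y (back-calculated level -7.19 log2 CPM in control saline and 3.68 in control LPS mice, FDR = 0.0351) and Uty (FDR = 0.0377) were also called higher in the authors' deposited table for controls. The labels give no sex, so for every member the sex makeup of these control groups and LPS cannot be told apart. Without the 7 X-linked members the median in controls was 0.11. In cKO mice 13 members rose (12.7%), close to the 10.9% of all genes, and 4 fell (3.92%), against 8.52% of all genes. Their median there was 0.04, and 57 members (55.9%) lay above 0, against 49.8% of all genes. At an unadjusted p below 0.05, 18 members (17.6%) were higher and 15 (14.7%) lower in cKO mice, near the 19.1% and 16.7% of all genes. These shares describe the list and were not tested as such.

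**Figure D1:**
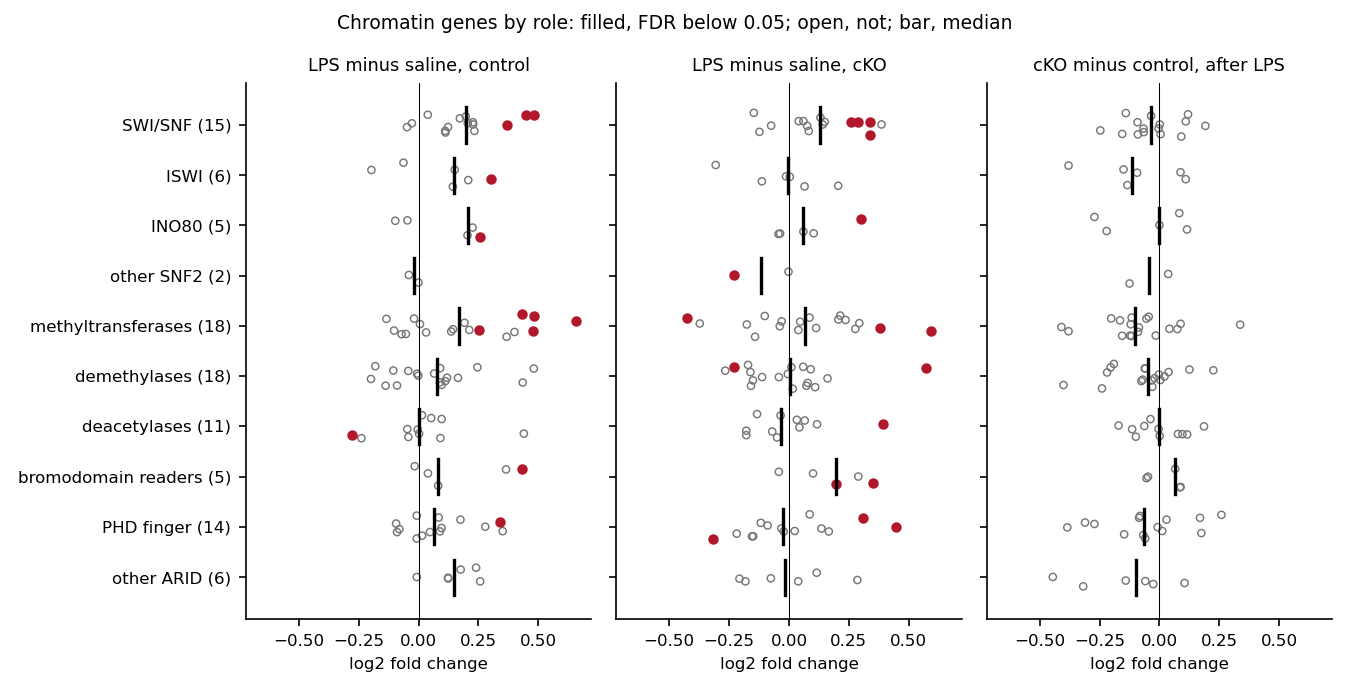
Log2 fold changes of the members by role for LPS in controls, LPS in cKO mice and cKO minus control after LPS. Each point is a gene from the authors' deposited tables, filled where its FDR was below 0.05, bars are medians, and the 2 opposite-strand transcripts are not drawn. The filled points of the methyltransferases in controls all lie above 0, while demethylases have none in controls.

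Of the methyltransferases, 5 of 18 rose with LPS in controls and none fell, against 6.46% and 3.31% of all genes. Of those 5, 4 write H3K4 methylation. Setd1a, a catalytic subunit of the SET1 complexes, stood at 4.59 log2 CPM in control saline, 5.25 in control LPS, 4.55 in cKO saline and 5.14 in cKO LPS mice. Its level was thus higher after LPS in both genotypes. Setd1a rose by 0.66 ± 0.14 in controls (edgeR FDR = 0.024) and by 0.59 ± 0.11 in cKO mice (FDR = 0.00924) in the authors' deposited tables, the largest rise of any member in either comparison. Kmt2b, a relative that acts at promoters, rose by 0.48 ± 0.11 (FDR = 0.0278) and 0.38 ± 0.11 (FDR = 0.0366) in those tables. Kmt2a, the mammalian counterpart of fly trithorax, rose by 0.43 ± 0.07 in controls (FDR = 0.00985), the smallest adjusted p of the members there. Its group levels were 6.95, 7.38, 7.04 and 7.28 log2 CPM in the order given for Setd1a. In cKO mice the authors' deposited table gave Kmt2a 0.24 ± 0.10 (FDR = 0.134). Kmt2d, which methylates enhancers, rose by 0.48 ± 0.11 in controls (FDR = 0.0343) and stood at 0.28 ± 0.14 in cKO mice (FDR = 0.175) in the authors' deposited tables. The other two H3K4 writers, Setd1b and Kmt2c, stood at 0.40 ± 0.15 (FDR = 0.108) and 0.19 ± 0.07 (FDR = 0.0982) in controls. All 6 writers thus lay above 0 in controls (median 0.45), and 5 of 6 in cKO mice (median 0.26), against 49.5% and 49.8% of all genes.

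None of the enzymes that remove H3K4 methylation passed as higher. Of the 5 measured, none changed in controls (median -0.11), where 6.46% of all genes rose and 3.31% fell. Kdm1a, which takes off mono- and dimethyl marks, fell by 0.23 ± 0.06 in cKO mice (FDR = 0.0355) in the authors' deposited table. Kdm5b was 0.12 ± 0.05 higher in controls (FDR = 0.173) and Kdm5c differed by -0.01 ± 0.05 (FDR = 0.953) in that table. Kdm5d, the Y-linked copy of Kdm5c, has no row in the tables used here.

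**Figure D2:**
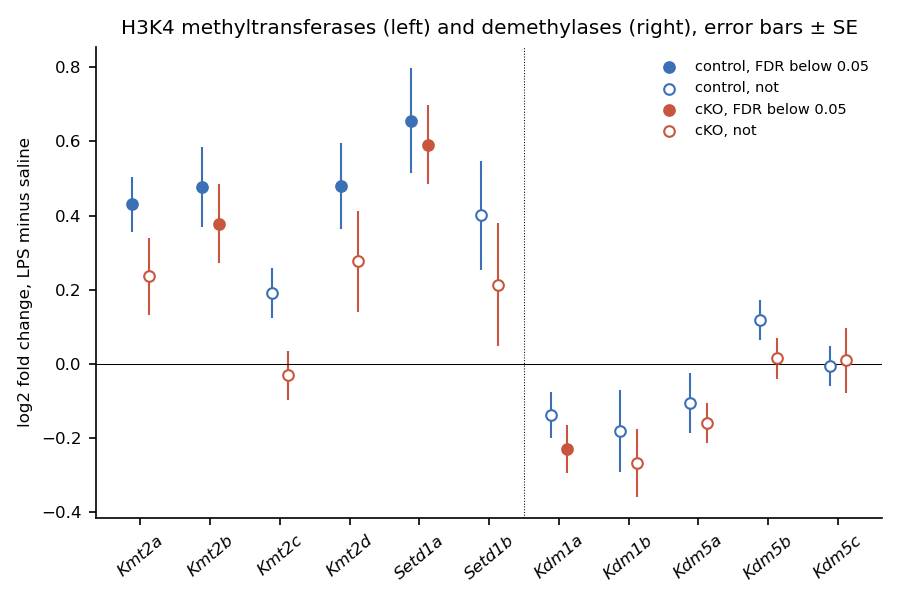
Log2 fold change with LPS for the H3K4 writers and erasers, with control and cKO mice side by side. Points are values of the authors' deposited tables with ± SE bars derived from F, filled where the FDR was below 0.05. In controls all 6 writers lie above 0 and 4 of the 5 erasers below 0.

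The remaining methyltransferases moved differently from each other. Setd5, a SET domain protein mutated in intellectual disability, rose by 0.25 ± 0.07 in controls, just inside the threshold (FDR = 0.0485), and stood at 0.04 ± 0.06 in cKO mice (FDR = 0.659) in the authors' deposited tables. Setd7, which monomethylates H3K4 in vitro as well as many non-histone proteins, had levels of 7.51, 7.46, 7.55 and 7.13 log2 CPM in control saline, control LPS, cKO saline and cKO LPS mice. Only the cKO LPS level was low. Setd7 fell by 0.42 ± 0.07 in cKO mice (FDR = 0.00653), the largest fall of any member there, and stood at -0.05 ± 0.07 in controls (FDR = 0.661) in the authors' deposited tables. Among enzymes of other marks, the H3K36 methyltransferase Setd2 stood at 0.14 ± 0.05 in controls (FDR = 0.106), and the H3K9 methyltransferase Setdb1 at 0.01 ± 0.06 (FDR = 0.962). In cKO mice the H4K20 methyltransferase Kmt5b (-0.18 ± 0.06, FDR = 0.0565) and Setd4 (-0.37 ± 0.12, FDR = 0.0552) lay just outside the threshold of the authors' deposited table.

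SWI/SNF complexes, built on the ATPases Smarca4 or Smarca2, gave 3 of 15 members that rose in controls and 4 in cKO mice, with none that fell. Over all genes 6.46% rose and 3.31% fell in controls, and 10.9% rose and 8.52% fell in cKO mice. Arid1a, the DNA-binding subunit that defines canonical BAF complexes, had levels of 6.02, 6.50, 6.06 and 6.45 log2 CPM in control saline, control LPS, cKO saline and cKO LPS groups, so both LPS levels were high. It rose by 0.48 ± 0.11 in controls (FDR = 0.0266) and missed the threshold narrowly in cKO mice, at 0.39 ± 0.12 (FDR = 0.0501), in the authors' deposited tables. Smarcd1, a core subunit, rose in both genotypes, by 0.37 ± 0.08 (FDR = 0.0235) and 0.34 ± 0.07 (FDR = 0.0172). The paralogous scaffold subunits Smarcc1 and Smarcc2 differed in where they passed. Smarcc1 rose by 0.45 ± 0.11 in controls (FDR = 0.0379) and stood at 0.15 ± 0.10 in cKO mice (FDR = 0.316) in the authors' deposited tables. Smarcc2 rose in cKO mice, by 0.34 ± 0.06 (FDR = 0.00718), and stood at 0.23 ± 0.07 in controls, outside the threshold (FDR = 0.0604). Also in cKO mice, the authors' deposited table gave rises of the core subunit Smarcb1 by 0.26 ± 0.07 (FDR = 0.032) and of the PBAF subunit Brd7 by 0.29 ± 0.08 (FDR = 0.0294). The ATPases were higher with LPS in controls by 0.20 ± 0.06 (Smarca4, FDR = 0.0804) and 0.23 ± 0.07 (Smarca2, FDR = 0.0577), neither of which passed. Arid1b, the paralogue of Arid1a, stood at 0.17 ± 0.07 (FDR = 0.133).

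Of the other remodellers, Baz2a, a subunit of the complex that silences ribosomal RNA genes, rose by 0.30 ± 0.06 in controls (FDR = 0.0235). No ISWI member changed in cKO mice (0.21 ± 0.08 for Baz2a, FDR = 0.0955) in the authors' deposited tables, where 10.9% of all genes rose and 8.52% fell. The ISWI ATPase Smarca5 stood at -0.06 ± 0.09 in controls and 0.07 ± 0.05 in cKO mice, and its partner Baz1a at 0.14 ± 0.17 and -0.31 ± 0.21. Ino80, the ATPase of its complex, rose by 0.26 ± 0.07 in controls, just inside the threshold (FDR = 0.0487), and stood at -0.04 ± 0.07 in cKO mice (FDR = 0.665) in the authors' deposited tables. The subunit Ino80e rose in cKO mice by 0.30 ± 0.09 (FDR = 0.0427). Smarcad1, a helicase that helps restore silent chromatin after replication, fell by 0.23 ± 0.07 in cKO mice (FDR = 0.0364).

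No demethylase changed in controls, where 6.46% of all genes rose and 3.31% fell. In cKO mice Phf2, a demethylase of H3K9, rose by 0.57 ± 0.10 (FDR = 0.00957) in the authors' deposited table, and its control value was 0.43 ± 0.14 (FDR = 0.083). Kdm6b, an H3K27 demethylase induced by LPS in macrophages, stood at 0.48 ± 0.19 in controls (FDR = 0.131) and 0.07 ± 0.18 in cKO mice (FDR = 0.797), so its large point value in controls did not pass. The X-linked Phf8 stood at 0.16 ± 0.08 and 0.08 ± 0.10.

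Of the 11 deacetylases, Hdac11, the sole class IV enzyme, was the only member of the 102 that fell in controls in the authors' deposited table. Its group levels were 7.62, 7.34, 7.57 and 7.44 log2 CPM, lower after LPS in both genotypes. Hdac11 fell by 0.28 ± 0.05 in controls (FDR = 0.0159) and stood at -0.13 ± 0.07 in cKO mice (FDR = 0.23) in the authors' deposited tables. Hdac7, a class IIa enzyme known from endothelial cells, rose by 0.39 ± 0.10 in cKO mice (FDR = 0.023) and stood at 0.44 ± 0.13 in controls (FDR = 0.0634). In the same comparisons 4 of 6 endothelial markers rose in controls and 5 of 6 in cKO mice, and the part of endothelium in these values was not tested. The class I enzymes lay near 0, with Hdac1 at -0.04 ± 0.13, Hdac2 at 0.05 ± 0.09 and Hdac3 at 0.09 ± 0.06 in controls. Hdac4 and Hdac9, both class IIa, were at -0.00 ± 0.06 and 0.01 ± 0.08 there.

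Among readers, Brd3, a BET protein that binds acetylated histones, rose by 0.43 ± 0.10 in controls (FDR = 0.0341) and 0.35 ± 0.08 in cKO mice (FDR = 0.0209) in the authors' deposited tables. Its relative Brd2 stood at -0.02 ± 0.06 in controls (FDR = 0.883). Brd8, a subunit of the TIP60 acetyltransferase complex, rose by 0.19 ± 0.05 in cKO mice (FDR = 0.0348). The PHD finger gene Phf12, a subunit of a SIN3 corepressor complex, rose in both genotypes, by 0.34 ± 0.08 (FDR = 0.0346) and 0.31 ± 0.09 (FDR = 0.0331) in the authors' deposited tables. Phf1, an accessory factor of Polycomb complex PRC2, had levels of 4.82, 4.90, 4.66 and 5.11 log2 CPM in the 4 groups, highest in cKO LPS mice. It rose by 0.45 ± 0.08 in cKO mice (FDR = 0.00843) and stood at 0.08 ± 0.09 in controls (FDR = 0.576). Phf20l1, a reader of methylated lysine, fell by 0.32 ± 0.07 in cKO mice (FDR = 0.0203), and Phf21a stood at 0.17 ± 0.08 in controls (FDR = 0.198). With LPS, where 6.46% of all genes rose in controls and 10.9% in cKO mice, none of the 6 ARID genes outside SWI/SNF passed. Arid5b was closest, at 0.29 ± 0.09 in cKO mice (FDR = 0.0532), and the RNA-binding Arid5a stood at -0.01 ± 0.12 in controls in the authors' deposited table.

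The genotypes were compared first by which members passed in each. The members that rose in both were Brd3, Kmt2b, Phf12, Setd1a and Smarcd1, which are 41.7% of the 12 that rose in controls and 38.5% of the 13 that rose in cKO mice, and 0 fell in both. Over all genes 507 rose in both, out of 890 that rose in controls and 1506 that rose in cKO mice. Rises in both were thus found in 4.9% of members and 3.68% of all genes. Changes in both comparisons were found in 4.9% of members and 5.26% of all genes, and changes in either in 24.5% and 24%. The underlying tables share no mice, and 71 of 102 members had the same sign in both. Across the members the fold changes had a Pearson r of 0.67 and a Spearman rho of 0.62, near the 0.68 and 0.63 across all 13784 genes. Genes within a table share their libraries and are not independent replicates.

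**Figure D3:**
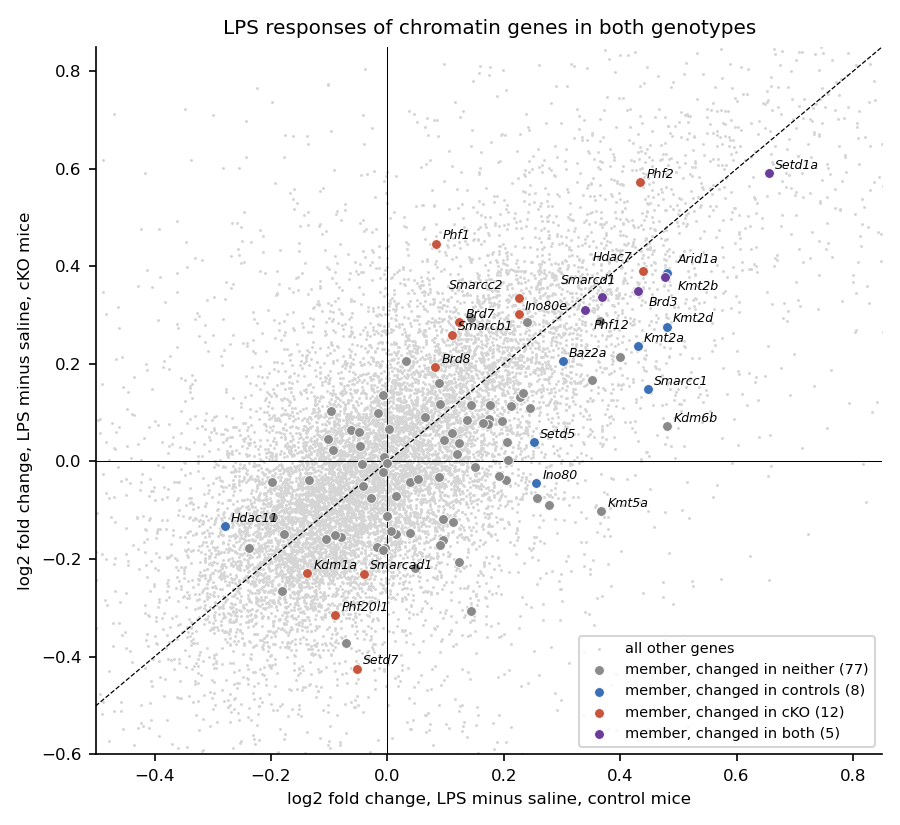
Log2 fold change with LPS in cKO mice (vertical) against controls (horizontal) in the authors' deposited tables, with each point a gene and the dashed line marking equal values. Grey dots are all other genes, some of which lie outside the axes. The 5 members that rose in both genotypes lie in the upper right. Kmt5a, Kdm6b, Setd7 and Phf1 are among the members far from the line.

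Promoter sequence was set beside these members, since several rose together. The RefSeq table of mouse promoters (GRCm38.p6) matched 78 of the 102. For members and tested genes only the first promoter listed per gene was used, while the set of all promoters was taken whole. Other starts of a gene were not examined. Sequences are shown for the largest riser Setd1a, for Brd3, which rose in both genotypes, and for the fallers Setd7 and Hdac11, each as the 250 bases before the annotated start, read 5′ to 3′ on the gene's strand, with CG dinucleotides in capitals. They lie at chr7:127777139-127777388 (Setd1a, plus strand), chr2:27475399-27475648 (Brd3, minus), chr3:51560824-51561073 (Setd7, minus) and chr6:91156565-91156814 (Hdac11, plus).
Setd1a: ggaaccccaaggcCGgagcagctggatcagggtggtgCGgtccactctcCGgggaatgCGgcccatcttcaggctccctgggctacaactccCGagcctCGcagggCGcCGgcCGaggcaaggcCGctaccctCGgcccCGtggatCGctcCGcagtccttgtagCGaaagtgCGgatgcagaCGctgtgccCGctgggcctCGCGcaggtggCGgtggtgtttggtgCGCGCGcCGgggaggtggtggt
Brd3: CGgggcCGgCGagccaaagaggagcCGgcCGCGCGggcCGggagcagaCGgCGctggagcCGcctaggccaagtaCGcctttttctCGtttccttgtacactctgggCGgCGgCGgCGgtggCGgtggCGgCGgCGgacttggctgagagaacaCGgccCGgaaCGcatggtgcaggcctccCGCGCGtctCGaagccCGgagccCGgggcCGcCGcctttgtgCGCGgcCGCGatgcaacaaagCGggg
Setd7: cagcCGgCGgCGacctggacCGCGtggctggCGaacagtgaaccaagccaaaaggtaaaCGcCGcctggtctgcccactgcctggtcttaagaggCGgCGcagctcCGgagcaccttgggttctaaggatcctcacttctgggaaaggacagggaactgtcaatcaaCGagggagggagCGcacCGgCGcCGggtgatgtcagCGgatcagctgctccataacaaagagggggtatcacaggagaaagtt
Hdac11: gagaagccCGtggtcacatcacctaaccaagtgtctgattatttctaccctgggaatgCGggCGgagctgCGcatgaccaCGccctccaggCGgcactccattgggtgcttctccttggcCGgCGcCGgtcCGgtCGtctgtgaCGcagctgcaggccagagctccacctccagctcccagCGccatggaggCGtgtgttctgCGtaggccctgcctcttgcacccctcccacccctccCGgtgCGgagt
The printed stretches hold 25 CG dinucleotides in Setd1a, 37 in Brd3 and 17 each in Setd7 and Hdac11. Over the whole windows of 300 bases the counts were 35 in Setd1a, 46 in Brd3, 21 in Setd7 and 22 in Hdac11. This order did not hold for other members: such windows hold 29 in the faller Kdm1a, and 1, 22 and 23 in the risers Setd5, Arid1a and Ino80e.

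Over whole 300-base windows, members that rose in either LPS comparison had a median of 31.5 CpG (18 promoters), those that fell 21.5 (4 promoters), all matched members 26 and all tested genes with a promoter 21. The letters GGGCGG, the core of the GC box, were found on either strand in 83.33% of the risen members' promoters, 74.36% of all members' and 65.22% of tested genes', against 35.66% of all 32851 promoters of the table. CCAAT was found in 16.67%, 37.18%, 38.57% and 37.41% of the same sets. TATAAA was in 0%, 6.41%, 6.737% and 13.62%. The E-box letters CACGTG were in 5.556%, 5.128%, 10.23% and 7.15%, and GCATGC was in 11.11%, 8.974%, 9.921% and 7.933%. These are matches of letters, described without a test.

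Members were also long, and those that rose in controls had more G and C than the members as a whole. The members' median longest transcript was 5344.5 bases against 3530 for all genes. Their median GC content, 49.82%, was near that of all genes. Members that rose in controls had medians of 6621 bases and 52.98% GC. All genes that rose in controls had medians of 4069.5 bases and 52.49% GC, near the GC of the risen members, and all genes tested had 49.51% GC. Across all genes the fold change with LPS had a Spearman rho with GC content of 0.16 in controls and 0.29 in cKO mice. With length the rho was 0.10 in controls and -0.06 in cKO mice, so its sign differed. After a smooth trend over GC content and length was removed, 4 of the 102 members rose in controls in place of 12. They were Setd1a (0.56), Kmt2a (0.34), Smarcc1 (0.43) and Smarcd1 (0.31). All genes gave 4.79% higher, so the members' share no longer lay above that of all genes. Calls in controls that ended under that correction kept their sign, at 0.37 for Arid1a (FDR = 0.0611), 0.22 for Baz2a (FDR = 0.0649), 0.37 for Brd3 (FDR = 0.0558) and 0.22 for Ino80 (FDR = 0.0776). Likewise Kmt2b stood at 0.39 (FDR = 0.0556), Kmt2d at 0.35 (FDR = 0.0896), Phf12 at 0.26 (FDR = 0.0827) and Setd5 at 0.21 (FDR = 0.0893), while Hdac6 was gained as lower. In cKO mice the calls of Ino80e (0.30, FDR = 0.0501), Hdac7 (0.31, FDR = 0.0578), Kmt2b (0.31, FDR = 0.0806), Phf12 (0.22, FDR = 0.11) and Smarcd1 (0.24, FDR = 0.0569) ended. Those of Phf20l1 (-0.16, FDR = 0.17) and Smarcad1 (-0.13, FDR = 0.189) ended too. Calls gained in cKO mice were Arid5b and Smarca5, higher, and Hdac6, Phf23 and Setd4, lower. The members' median in controls was 0.09 after it, against 0.10 before.

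After LPS, cKO and control mice did not differ in any chromatin gene at the threshold. By edgeR, 0 of 102 members changed in the authors' deposited table, where 0.00725% of all genes did. At an unadjusted p below 0.05 there were 20 members (19.6%), against 12.3% of all genes. Of these, 15 were lower in cKO mice (14.7%), against 6.33% of all genes, and 5 were higher (4.9%), against 5.98%. By sign, 66 members (64.7%) lay below 0, against 49.5% of all genes, and the members' median was -0.05.

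The smallest p belonged to Setd7, whose levels were given above. It was lower in cKO LPS than control LPS mice by a log2 value of -0.38 ± 0.06 (95% interval -0.52 to -0.24), with an edgeR FDR of 0.147 in the authors' deposited table. Next was Kmt5a, which monomethylates H4K20, with levels of 4.65, 5.02, 4.78 and 4.67 log2 CPM in control saline, control LPS, cKO saline and cKO LPS mice. Its control LPS level stood above the other three. The deposited genotype value of Kmt5a was -0.41 ± 0.07 (interval -0.57 to -0.24, FDR = 0.147) in the authors' deposited table. Ino80 (-0.27 ± 0.08) and the demethylases Kdm2a (-0.22 ± 0.06) and Kdm7a (-0.24 ± 0.07) followed, each with an FDR of 0.291. Further lower values in the authors' deposited table were those of Setd5 (-0.20 ± 0.07), Phf21b (-0.38 ± 0.13) and Smarcc1 (-0.25 ± 0.09). Phf1 (0.26 ± 0.08) and Phf2 (0.23 ± 0.08) were the higher ones among the 10 smallest p. The 6 H3K4 writers all lay below 0, between -0.16 and -0.02, and 4 of 6 did (median -0.01) after the trend over GC content and length was removed, with Kmt2d at 0.01 and Setd1b at 0.05.

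**Figure D4:**
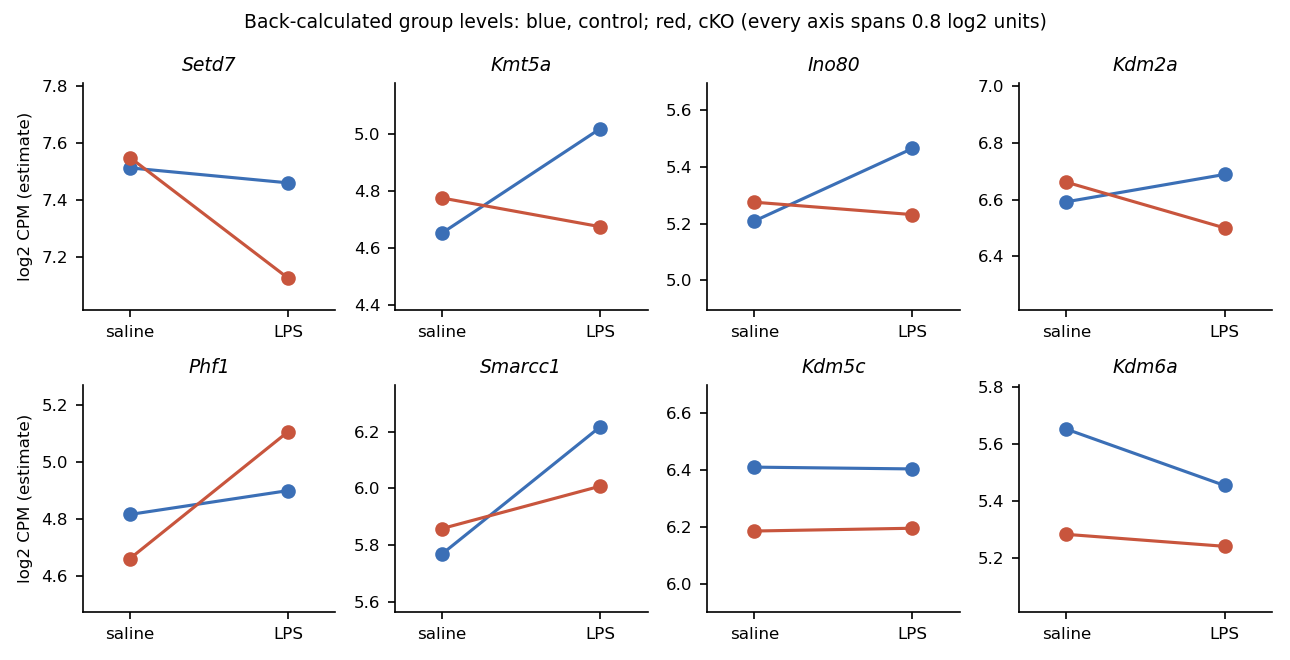
Back-calculated group levels (log2 CPM) of 8 members, with control mice in blue and cKO mice in red, saline on the left and LPS on the right. Points are group estimates, and every axis spans 0.8, with no error bars because values per mouse were not used. Setd7 is lowest in cKO LPS mice, and Kmt5a is highest in control LPS mice.

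Whether the genotypes responded differently to LPS was tested per gene as the cKO fold change minus the control fold change. With each standard error read back from its p-value on the normal scale, and Benjamini-Hochberg adjustment over all genes, 0 of 102 members passed, against 0.00725% of all genes. An unadjusted p below 0.05 was found for 12 members (11.8%), against 6.52% of all genes. Of these, 11 (10.8%) had the lower response in cKO mice, against 3.5% of all genes, and 1 (0.98%) the higher, against 3.02%. By sign, 71 of 102 (69.6%) lay below 0, against 50.1% of all genes, with a members' median of -0.08. The smallest p belonged to Setd7, at -0.37 ± 0.13 (FDR = 0.495), and Kdm2a, at -0.26 ± 0.09 (FDR = 0.495). Kmt5a at -0.47 ± 0.18 (FDR = 0.535), Ino80 at -0.30 ± 0.11 (FDR = 0.549) and Phf1 at 0.36 ± 0.15 (FDR = 0.672) came next. The 6 H3K4 writers all lay below 0 (median -0.19), also after that trend was removed (median -0.09). With standard errors from F, Setd7 passed (FDR = 0.03). On simulated tables the main test found 24.65% of genes changed by 0.5 and 73.2% of those changed by 1, so most differences of 0.5 were missed there. The genotype comparison shares its LPS mice with both LPS comparisons, so its values and those of the difference are not separate evidence.

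**Figure D5:**
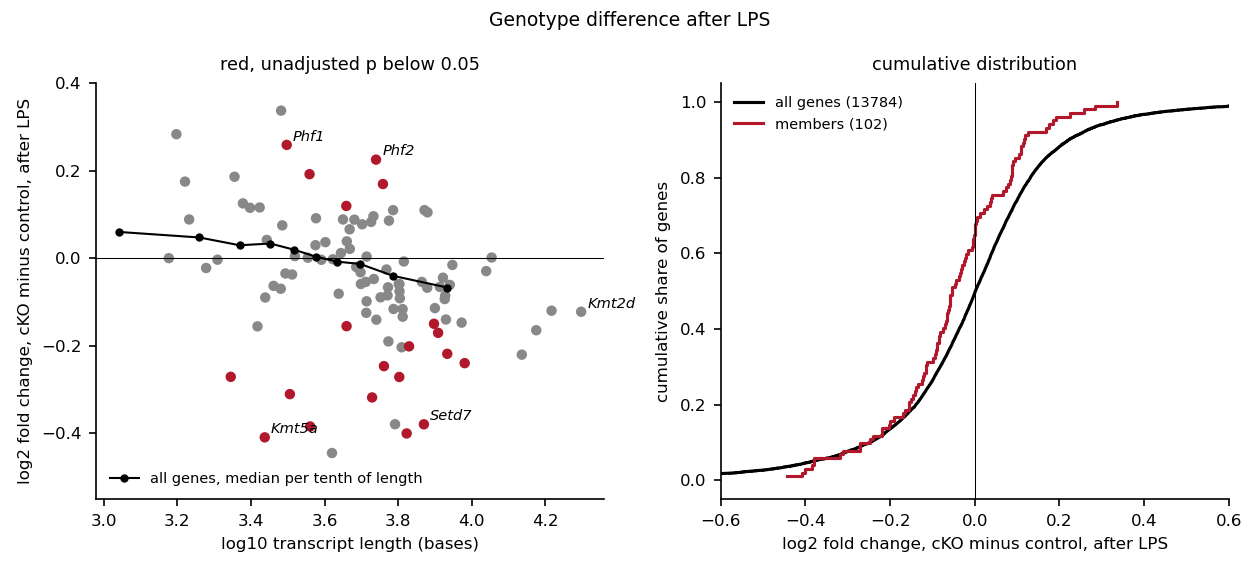
Left, the cKO minus control log2 fold change after LPS of each member against log10 transcript length, in red where the unadjusted p was below 0.05, with black points for the medians of all genes in bins of length. Right, the cumulative share of genes by that fold change for members and for all genes, with the ends of the all-gene curve outside the axis. Between about -0.2 and 0.4 the members' curve lies to the left of that of all genes.

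Transcript length moved with the genotype values. The Spearman rho between length and the cKO minus control fold change after LPS was -0.20 across all genes and -0.41 across the 102 members, and for the difference of the LPS responses it was -0.21 and -0.42. With the trend over GC content and length removed, 59 members lay below 0 in the genotype comparison in place of 66, with a median of -0.01, and 65 in place of 71 in the difference, with a median of -0.06. The microglial and endothelial markers also lay lower in cKO LPS than control LPS mice, 7 of 7 (median -0.26) and 6 of 6 (median -0.22), and the 4 striatal markers higher (median 0.67), none past the threshold. The 2 proliferation markers were lower too (median -1.39) and the 2 choroid plexus markers higher (median 0.91), again none past the threshold. The part of dissection and cell makeup in the members' values was not tested. The 3 sex-linked genes measured ran from -1.21 to 1.42 for cKO minus control after LPS, none past the threshold. Their median in the difference of the LPS responses was -10.3. In both of these comparisons, sex makeup and genotype cannot be told apart.

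For saline mice only a point estimate of cKO minus control could be computed, as the genotype value after LPS less the difference of the responses. Of the members, 77 (75.5%) lay above 0, against 52.7% of all genes, but the values were small, with a median of 0.03. The lowest were the X-linked demethylases Kdm6a, at -0.35, and Kdm5c, at -0.22, both of which escape X inactivation. Kdm5c levels were 6.41, 6.40, 6.19 and 6.20 log2 CPM in control saline, control LPS, cKO saline and cKO LPS mice, and those of Kdm6a were 5.65, 5.45, 5.28 and 5.24. Both were low in the cKO groups. Xist, the RNA of the inactive X, had levels of 7.47, 7.33, 4.35 and 5.91, and the Y-linked Ddx3y had -7.19, 3.68, 5.87 and 5.71, so the sexes were not evenly spread over the groups. Here too, sex and genotype cannot be told apart.

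Genes linked to autism were spread over the roles. Of 17 members on such a list, 15 lay above 0 with LPS in controls (median 0.21) and 14 in cKO mice (median 0.08), and 3 rose in each. Over all genes 49.5% and 49.8% lay above 0, and 6.46% and 10.9% rose. Those that rose in the authors' deposited tables were Kmt2a, Setd5 and Phf12 in controls and Phf2, Phf12 and Smarcc2 in cKO mice. After LPS 13 of the 17 lay below 0 for cKO minus control (median -0.06), against 64.7% of the 102 members and 49.5% of all genes. With the trend over GC content and length removed, Kdm5b (0.0002), Setd1b (0.05) and Setd2 (0.02) moved above 0. Arid1b, Phf2, Phf12 and Smarcc2 stayed above 0.

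Partner genes outside the naming rule were counted in the same tables, in which 6.46% of all genes rose and 3.31% fell in controls, and 10.9% rose and 8.52% fell in cKO mice. Of 11 acetyltransferases, the counterparts of the deacetylases, 4 rose in controls and 1 in cKO mice, and none fell. The coactivators Ep300 and Crebbp rose by 0.36 ± 0.07 (FDR = 0.0155) and 0.35 ± 0.06 (FDR = 0.012) in controls in the authors' deposited table. Of 10 shared COMPASS subunits, which assemble with the H3K4 writers, 1 rose in controls and 0 changed in cKO mice. Of 15 further SWI/SNF subunits and partners, 2 rose in each genotype. Of 20 deacetylase corepressors, 2 rose in controls, among them Sin3a by 0.42 ± 0.07 (FDR = 0.0114), and 3 in cKO mice in the authors' deposited tables. Of 24 Polycomb genes, 1 rose and 1 fell in controls, and 2 rose and 3 fell in cKO mice. Of 12 other methyltransferases, 1 rose in controls, and in cKO mice 1 rose and 1 fell. The H3K79 methyltransferase Dot1l rose in both genotypes, by 0.76 ± 0.17 (FDR = 0.029) and 0.75 ± 0.16 (FDR = 0.0147), in the authors' deposited tables. Of 12 SRCAP and TIP60 genes, 2 rose and 1 fell in controls and 0 changed in cKO mice. Of 7 measured DNA methylation genes, 1 rose in controls, the demethylating enzyme Tet3, and 2 fell in cKO mice, Dnmt3a and Uhrf2. Of 7 sirtuins, 0 changed in controls and 1 rose in cKO mice. In the genotype comparison after LPS none of these genes passed.

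Strand matters for 2 pairs. Brd3os and Ino80dos lie opposite Brd3 and Ino80d, and although the library kit keeps strand, the sources used here do not give the strand setting of the counting. Brd3os stood at 0.14 ± 0.07 with LPS in controls (FDR = 0.212) in the authors' deposited table, beside the rise of Brd3, and reads of such a pair cannot be told apart here.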

How the data were processed

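RNA from 18 cortex samples was compared by the submitters in 3 comparisons. Groups were taken from the genotype label, since every title carries the word saline. The submitters' processing notes list build GRCm39 and the tools edgeR 3.30.3, RSEM, STAR and cutadapt 3.5, with no order. The gene filter is not stated. For each gene the authors deposited the fold change on a log2 scale, the mean level as log2 CPM, an F statistic (a score), a p-value and its FDR, per the file headers. Fold change signs were read as cKO minus control and LPS minus saline: only so did levels of a group agree between tables (SD over genes 0.0537 and 0.0503, against at least 0.226 with a sign turned).

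Each standard error is the absolute fold change over the square root of F, and intervals used the implied degrees of freedom (8.66 to 9.85). Adjusted p-values are those the authors deposited from edgeR, with Benjamini-Hochberg adjustment over 13784 genes, of which 757 have no symbol. In simulation, 3.34% of calls of the difference test were unchanged genes. Transcript length and GC content came from GENCODE vM21 (13730 genes). Calculations used Python 3.11.15, pandas 2.3.3 and scipy 1.17.1. The labels do not say that each library is a separate mouse in so many words, so p-values measure the spread between these samples.

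Named are the 10 largest rises and falls per LPS comparison among changed members, members changed in both, the 10 smallest p between genotypes, the 5 smallest p of the difference, a list of well-known members and those near the threshold. Not every gene this rule names is reported here. Members of the pathway lists named with values were chosen after their values were seen. The members and lists were chosen with earlier results of these data known.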

Additional observations from a re-analysis of the deposited data

How the results depend on the processing

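With an FDR below 0.10, 25 of the 102 members were higher with LPS in controls, against 11.3% of all genes, and 2 lower, against 7.26%. In cKO mice 16 were higher and 10 lower, against 16.2% and 13.5% of all genes. A further setting was an FDR below 0.05 with a log2 fold change of at least 0.32. Under it 9 members were higher and 0 lower in controls, against 5.62% and 1.36% of all genes. In cKO mice 8 were then higher and 1 lower, against 8.39% and 3.8% of all genes. With the trend over GC content and length removed, 4 were higher and 2 lower in controls, against 4.79% and 2.55% of all genes. In cKO mice 10 were higher and 5 lower with it removed, against 8.55% and 6.28% of all genes. Of the members called with LPS in controls and cKO mice, 0 of the 13 and 0 of the 17 changed sign. Over all 102 members, however, 5 and 19 did, and 13 between genotypes. With standard errors from F, 1 member had a lower LPS response in cKO mice, as did 65 of all genes, but in simulation 20.8% of the calls of that version were unchanged genes. A filter at a mean log2 CPM of 1 and centring on the median of all genes kept the counts of changed members within 1.5 times; leaving out X-linked members was run for the medians only, which were then 0.11 and 0.04 with LPS in controls and cKO mice, -0.05 between genotypes and -0.09 for the difference. No paired analysis was possible because the tables hold no values per mouse; for the same reason no replicate was left out in turn. Depth is unknown, so within the standard errors counting error cannot be separated from the spread between samples.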
